A study of Mus musculus with 20 samples.

Results

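Rab22a knockout and wild type aortas were compared in mice that received saline and no angiotensin II, which gives the state of the vessel without the hormone. Of the 20 libraries of the study, 10 enter this comparison. They are 5 libraries of abdominal aorta from Rab22a knockout C57BL/6 mice (KO+NS, replicates 1 to 5) and 5 from Rab22a wild type C57BL/6 mice (WT+NS, replicates 1 to 5), all after 14 days of saline. The members were taken by the genotype and treatment given in the labels. The other 10 libraries come from knockout and wild type mice given AngII at 500 ng/kg/min for 14 days. They help to set the spread in the same model and are quoted beside a result as a second set of libraries. Their genotypes are the same, so a repeated sign cannot tell the knockout from another difference between knockout and wild type libraries. Age and sex of the mice and the way the knockout was made were not given in the sources used here, and the labels describe no tissue restriction of it. Each library came from total RNA depleted of ribosomal RNA, so it holds unspliced and noncoding RNA along with mature mRNA. The values were read as FPKM, a read density corrected for the length of the transcript and the depth of the library, because the labels name no unit. The labels do not say that each library is a separate animal, and the p-values measure the spread between these libraries.

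Rab22a is a small GTPase of the Rab5 subfamily. Rab proteins switch between a GTP-bound and a GDP-bound form and recruit effectors to the membranes they mark. Rab22a is known for its place on early endosomes and on the tubules through which internalised receptors return to the cell surface. The title of the study names the recycling of the angiotensin II type 1 receptor, a receptor of vascular smooth muscle that raises vessel tone.

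The steps in the values imply about 74900000 to 77000000 reads in the knockout libraries and 71200000 to 77100000 in the wild type libraries. Genes reaching 1 FPKM numbered 13128 to 14342 in knockout and 13342 to 14255 in wild type libraries. Smooth muscle markers were abundant in every library, with Acta2, smooth muscle actin, at 522 to 1467 FPKM in knockout and 1300.3 to 2088 FPKM in wild type aortas. The libraries also held RNA of other cells in unequal amounts. Summed FPKM of 22 B and plasma cell markers came to 6588 and 3924 in knockout replicates 1 and 3 and to 101 to 178 in the other knockout libraries, against 756 to 2453 in wild type. The 28 T and NK cell markers split the knockout libraries in the same way, with sums of 749 and 1103 in replicates 1 and 3 and 18.7 to 51.6 in the other knockout libraries, against 92.9 to 598 in wild type. Summed skeletal muscle markers spanned 16.9 to 6531 FPKM in knockout and 26.7 to 10252 FPKM in wild type libraries. In bulk tissue, fewer cells of a type and less RNA per cell cannot be told apart.

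The mark of the knockout in these libraries was an exon. Rab22a lies on the plus strand of chromosome 2 (ENSMUSG00000027519, mm10), and its main protein-coding transcript ENSMUST00000029024 includes exon 3. ENSMUST00000142820, which GENCODE marks as a target of nonsense-mediated decay, runs from the exon before it straight into the exon after it. Exon 3 has 82 bases, which leaves a remainder of 1 after division by 3, so its absence shifts the reading frame. The open reading frame runs for 194 codons with exon 3 and for 68 codons without it.

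The transcript with exon 3 stood at 0.00182, 0.00363, 0.00186, 0 and 0.00187 FPKM in knockout replicates 1 to 5. In wild type replicates 1 to 5 it stood at 6.66, 7.12, 8.42, 2.34 and 4.96 FPKM. The knockout values correspond to 1, 2, 1, 0 and 1 reads, 5 in all, while the wild type libraries held 1292 to 4442 reads each. The groups lie far apart, and wild type replicate 4 is the lowest of its group. On log2(FPKM + 1) the transcript fell by 2.70 in knockout aortas (limma, SE 0.28, adjusted p = 0.000191). The exact permutation test over all arrangements of the 10 libraries into groups of 5, two-sided, gave p = 0.00794, the smallest it can give.

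ENSMUST00000142820, without exon 3, stood at 7.43, 9.80, 9.67, 8.93 and 11.1 FPKM in knockout replicates 1 to 5. It stood at 3.599, 1.51, 2.01, 0.162 and 3.61 FPKM in wild type replicates 1 to 5. Every knockout library was above every wild type library, and wild type replicate 4 was again the lowest. The transcript rose by 1.86 on the log2 scale (limma, SE 0.31, adjusted p = 0.0273, exact permutation p = 0.00794). The call held in 11 of 21 alternative settings and was lost in 5 of 10 fits that left out 1 library, which were those without knockout replicates 2, 4 and 5 and wild type replicates 2 and 3. The call of the transcript with exon 3 held in 20 of 21. ENSMUST00000142820 is the single higher transcript among all that passed the test. Both models share nearly all of their remaining sequence, so their opposite differences are not independent. A shorter annotated transcript, ENSMUST00000109110, reached at most 0.0769 FPKM in knockout and 0.321 FPKM in wild type libraries and was not tested.

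Summed over its transcripts, Rab22a RNA averaged 9.41 ± 1.31 FPKM in knockout and 8.16 ± 3.11 FPKM in wild type aortas (SD, n = 5 each), a log2 difference of 0.27 with an exact permutation p of 0.579. Wild type replicate 4 had a sum of 2.82 FPKM, and without it the difference was -0.015. The transcript without exon 3 made up 99.0% to 100% of the sum in knockout libraries. In wild type libraries its share was 5.74% to 42.1%, with a median of 19.3%. Thus the total amount of Rab22a RNA overlapped between the groups while its make-up did not.

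**Figure D1:**
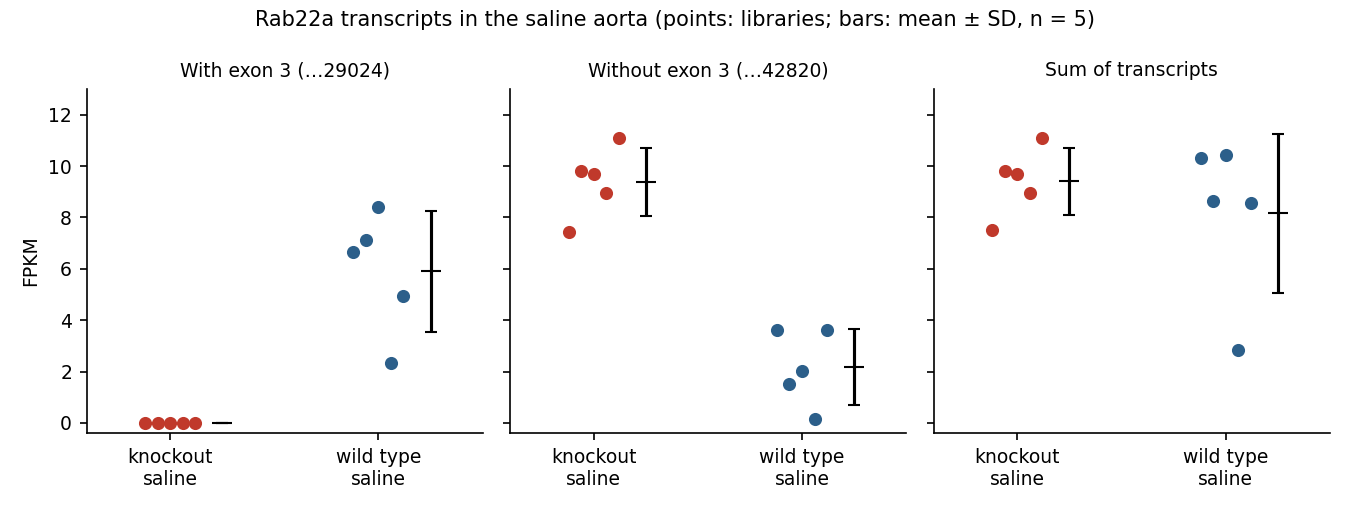
FPKM of the Rab22a transcript with exon 3, the transcript without it and the sum of all Rab22a transcripts (vertical axis, FPKM), with 1 point per saline library, knockout left of wild type, and the mean with its SD. The transcript with exon 3 is at or near 0 in all 5 knockout libraries, the transcript without it is higher in each of them than in any wild type library, and the sums overlap.

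Beyond Rab22a few features passed the test. Of 15010 genes tested by their summed FPKM, 2 passed at a p adjusted by Benjamini-Hochberg under 0.05 (0.0133%), and both fell in knockout aortas. They are Gm10800, a predicted gene on chromosome 2, and 6720427I07Rik, a long intergenic noncoding RNA on chromosome 13. At an unadjusted p under 0.05 there were 823 lower genes (5.48%) and 283 higher genes (1.89%). By sign alone 57.1% of genes were lower, and the median of all genes was -0.04 on the log2 scale, or 0.01 after quantile normalization and 0.00 after median-of-ratios scaling. In the AngII libraries, whose values do not enter the saline difference, 66.9% of all tested genes had the same sign of knockout minus wild type. So did 86.3% of the 1106 genes (7.37%) whose unadjusted saline p was under 0.05. The same comparison called 275 genes under AngII (1.83%), 216 of them lower (1.44%). That split depended on the scaling, with 124 of 374 lower after quantile normalization and 152 of 365 after median-of-ratios scaling. For the interaction of genotype and treatment limma called 0 genes, where 501 had an unadjusted p under 0.05. Limma-voom on recovered reads also called 0, but under saline it did not call Gm10800 either (adjusted p = 0.387). Its 0 calls therefore do not show that differences are absent.

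6720427I07Rik stood at 1.16, 1.09, 2.08, 1.37 and 1.16 FPKM in knockout replicates 1 to 5, against 2.97, 2.86, 3.44, 2.72 and 2.83 FPKM in wild type replicates 1 to 5. All knockout libraries lay below all wild type libraries, with knockout replicate 3 the closest. It fell by 0.75 on the log2 scale (limma, SE 0.12, adjusted p = 0.0423), and under AngII by 0.54 (adjusted p = 0.031). The saline call held in 8 of 20 alternative settings, and of the 10 fits that left out 1 library only that without knockout replicate 3 kept it.

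Taken transcript by transcript, 18 of 25362 were called (0.071%), 17 lower (0.067%) and 1 higher (0.00394%), from 17 genes. Only Gm10800 and 6720427I07Rik among these genes were also called by their sum. The knockout and wild type libraries did not overlap for any of the 18, where 1.55% of all tested transcripts did not overlap. The 18 were called on these same libraries, so their separation largely follows from the selection and is no added support. All 18 had the same sign under AngII, and 10 were called there, against 0.564% of all transcripts. Both contrasts use 1 shared estimate of the spread per transcript. A transcript called under saline is thus more readily called under AngII, and the 2 sets of calls are not independent. By annotated type they were 7 retained introns, 5 protein-coding transcripts, 3 processed transcripts, 2 subject to nonsense-mediated decay and 1 long intergenic noncoding RNA. A retained intron transcript is one in which an intron remains within the RNA, and it is not annotated as coding.

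The transcript of Nupr1, a small stress-induced nuclear protein, that is subject to nonsense-mediated decay (ENSMUST00000187609, chromosome 7) stood at 3.85, 0, 0, 0 and 0 FPKM in knockout replicates 1 to 5. In wild type replicates 1 to 5 it stood at 19.8, 21.1, 9.84, 9.28 and 14.3 FPKM. Knockout replicate 1 was the only knockout library above 0, and it was still below every wild type library. The transcript fell by 3.46 on the log2 scale (limma, SE 0.43, adjusted p = 0.00197). Under AngII the same difference was -0.22 (adjusted p = 0.857), and the interaction did not pass (adjusted p = 0.412). The sum of Nupr1 transcripts was 41.1 ± 12.8 FPKM in knockout and 56.6 ± 9.60 FPKM in wild type aortas (SD, n = 5 each) and was not called.

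For H3f3b, which encodes the replication-independent histone H3.3, a processed transcript (ENSMUST00000139378) stood at 3.24, 1.90, 4.00, 1.54 and 1.64 FPKM in knockout against 8.66, 6.99, 8.77, 14.7 and 6.52 FPKM in wild type replicates 1 to 5. It fell by 1.55 (limma, adjusted p = 0.0113) and made up 1.79% to 2.73% of the gene's sum in knockout and 7.25% to 10.6% in wild type libraries. The sum itself was 109 ± 37.6 FPKM in knockout and 110.4 ± 20.7 FPKM in wild type (SD, n = 5 each). So the minor transcript fell where the gene total overlapped.

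Hnrnph1 encodes a ribonucleoprotein that binds G-rich RNA and regulates splicing. Its processed transcript ENSMUST00000141668 stood at 1.90, 1.73, 5.14, 2.32 and 1.86 FPKM in knockout, against 7.38, 7.90, 10.3, 7.85 and 5.88 FPKM in wild type replicates 1 to 5. Knockout replicate 3 was the highest of its group and remained below every wild type library. The transcript fell by 1.36 (limma, adjusted p = 0.0273) and formed 10.4% to 14.6% of the gene's sum in knockout and 20.7% to 24.7% in wild type. Clk1 encodes a kinase that phosphorylates SR splicing factors. Its retained intron transcript ENSMUST00000129577 stood at 1.06, 0.961, 1.90, 0.859 and 0.757 FPKM in knockout and at 4.14, 2.51, 5.58, 3.56 and 2.03 FPKM in wild type replicates 1 to 5. It fell by 1.08 (limma, adjusted p = 0.0463), with knockout replicate 3 again the highest of its group. The Clk1 sum differed as well, by -1.12 (limma, adjusted p = 0.144). The retained intron transcript formed 4.79% to 5.94% of that sum in knockout and 6.70% to 10.4% in wild type. Rpp21, a protein subunit of ribonuclease P, had a retained intron transcript (ENSMUST00000174824) at 0.432 to 1.12 FPKM in knockout and 1.82 to 2.40 FPKM in wild type libraries, which fell by 0.86 (limma, adjusted p = 0.0265).

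Slirp encodes a mitochondrial RNA-binding protein that stabilises mitochondrial mRNA. Its protein-coding transcript ENSMUST00000160488 stood at 1.68, 1.39, 1.03, 1.55 and 0.616 FPKM in knockout and at 5.96, 4.27, 4.72, 3.67 and 5.36 FPKM in wild type replicates 1 to 5. It fell by 1.37 (limma, adjusted p = 0.0113), and its share of the gene's sum was 14.5% to 33.9% in knockout and 42.5% to 62.5% in wild type. Eif4a2 encodes an RNA helicase of translation initiation, and its protein-coding transcript ENSMUST00000077605 fell by 1.15 (limma, adjusted p = 0.0463), at 4.39 to 9.44 FPKM in knockout and 12.1 to 21.97 FPKM in wild type. Its share of the sum was 6.50% to 10.8% in knockout and 14.8% to 25.2% in wild type. A processed transcript of Rpl11, a protein of the large ribosomal subunit, fell by 1.34 (limma, adjusted p = 0.0273).

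The remaining called transcripts were lower as well. A retained intron transcript of Cox5b, a subunit of cytochrome c oxidase, stood at 2.12 to 4.68 FPKM in knockout and 7.42 to 12.6 FPKM in wild type and fell by 1.28 (limma, adjusted p = 0.0113). Its share of the gene's sum overlapped, at 1.41% to 5.29% in knockout and 1.94% to 5.39% in wild type. The Cox5b sum itself differed by -0.79 (limma, adjusted p = 0.523). The others were retained intron transcripts of Slc25a5, an ADP/ATP carrier of the inner mitochondrial membrane, of Mocs2, an enzyme of molybdenum cofactor synthesis, of Spcs1, a signal peptidase subunit, and of Atraid, together with a protein-coding transcript of 1810022K09Rik. Their log2 differences lay between -0.96 and -0.74. Each of these was a minor product of its gene, at most 8.49% of the sum in any knockout library and 19.97% in any wild type library. The share of the Spcs1 transcript also overlapped, at 0.863% to 2.33% in knockout and 2.02% to 4.84% in wild type. Many of these calls were lost in other settings. That of Nupr1 held in 19 of 21, those of Cox5b and Slirp in 17 of 21, being lost without knockout replicate 5 or wild type replicate 3, and that of H3f3b in 15 of 21, being lost also without knockout replicate 4. The calls of Hnrnph1 and Rpl11 held in 10 of 21, Eif4a2 in 9 of 21, Rpp21 in 9 of 20, and Clk1 and Spcs1 in 8 of 20. Those of 1810022K09Rik held in 7 of 21, the 6720427I07Rik transcript in 7 of 20, Atraid in 5 of 20, Slc25a5 in 3 of 20 and Mocs2 in 3 of 21. Each of these last 11 was lost without knockout replicate 4 or 5 and without wild type replicate 2 or 3. FPKM of overlapping transcripts depends on how reads were assigned among them, and that step was not given in the sources used here.

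**Figure D2:**
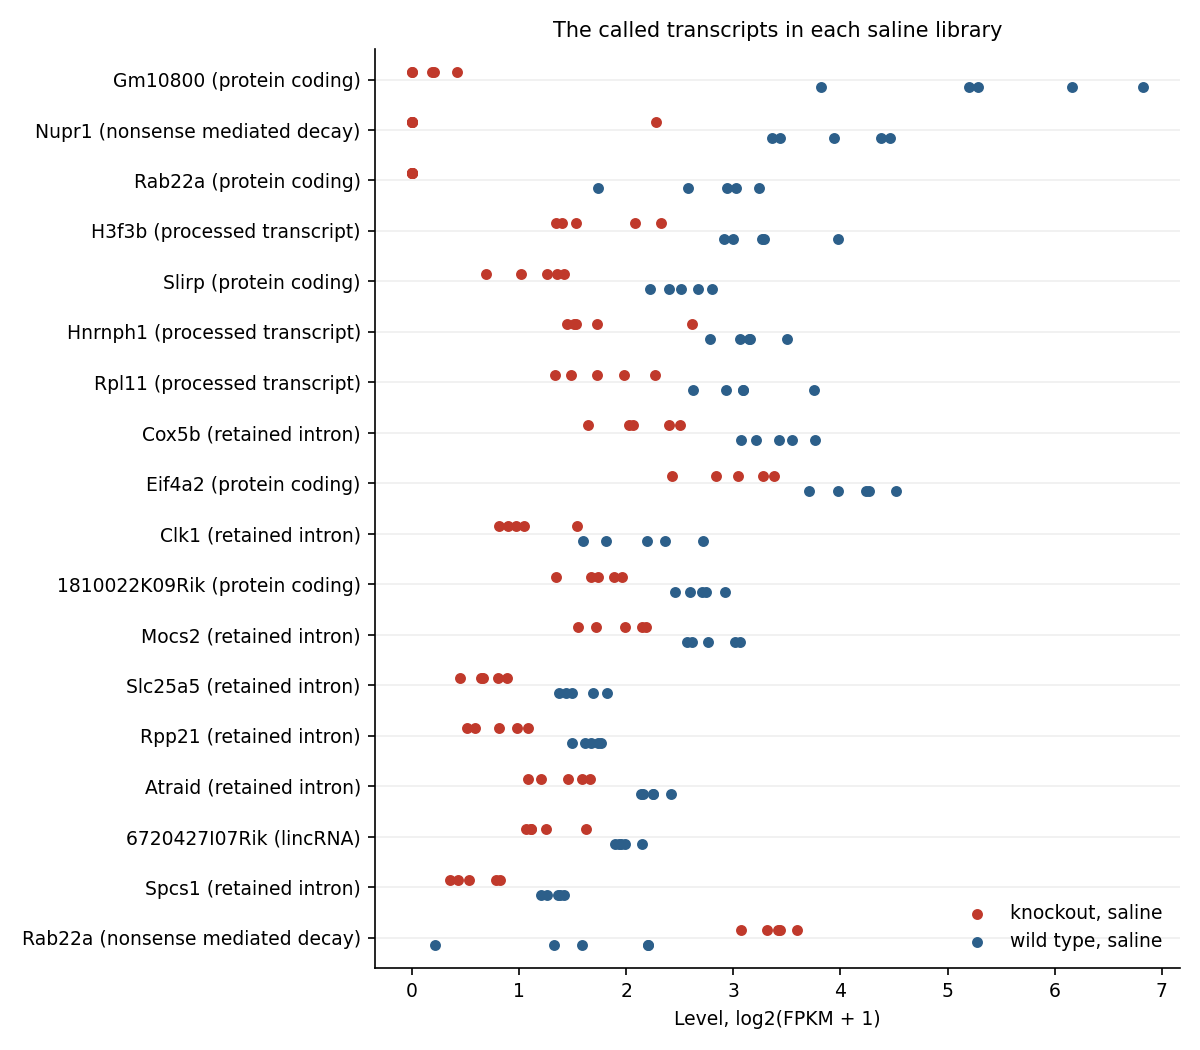
Level of the called transcripts, 1 per line, in the 10 saline libraries (horizontal axis, log2(FPKM + 1)), with 1 point per library, knockout in red drawn just above wild type in blue. For each transcript the knockout points lie wholly on one side of the wild type points, above them for the Rab22a transcript without exon 3 and below them for the other 17. The transcripts were selected on these same libraries.

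Retained intron transcripts lay lower than transcripts in general. Of 2981 tested retained intron transcripts 72.2% were lower in knockout and 14.1% were lower at an unadjusted p under 0.05, against 57.7% and 6.07% of all 25362 transcripts. Their median log2 difference was -0.18, and that of all transcripts was -0.06. For 18645 protein-coding transcripts the median was -0.03, with 53.6% lower and 4.52% lower at an unadjusted p under 0.05. Processed transcripts had a median of -0.15, long intergenic noncoding RNAs -0.16, antisense transcripts -0.13, processed pseudogenes -0.10 and transcripts subject to nonsense-mediated decay -0.07. In the AngII libraries the median was -0.10 over all transcripts, -0.18 for retained introns, -0.10 for processed transcripts, -0.08 for long intergenic noncoding RNAs, -0.02 for antisense transcripts, -0.26 for processed pseudogenes and -0.13 for transcripts subject to nonsense-mediated decay. Retained introns thus lay closer to the other transcripts there, and the processed, long intergenic and antisense classes lay no lower than transcripts in general.

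Per library the shift was not a clean separation. The median deviation of retained intron transcripts from their mean over the saline libraries was -0.04, -0.21, 0.14, -0.17 and -0.24 on the log2 scale in knockout replicates 1 to 5, against 0.16, -0.01, 0.23, 0.14 and -0.08 in wild type replicates 1 to 5. Knockout replicate 3, 1 of the 2 lymphocyte-rich libraries, was the highest of its group, and the groups overlap.

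Transcript length moved with the differences. The tested transcripts were split by length into 5 bins of about equal number. From the shortest to the longest bin the median log2 difference was -0.19, -0.11, -0.05, -0.01 and 0.06. The shortest bin spans 107 to 880 bases, and 73.8% of its transcripts were lower in knockout. In the longest bin, 4033 to 21704 bases, 41.0% were lower. The AngII libraries gave -0.24, -0.21, -0.12, -0.04 and 0.10 over the same bins. Within protein-coding transcripts alone the medians of the shortest and longest bin were -0.15 and 0.08. The shortest of these bins gave median deviations from the saline mean of -0.04, -0.11, -0.0027, -0.06 and -0.18 in knockout replicates 1 to 5. Wild type replicates 1 to 5 gave 0.06, 0.04, 0.09, 0.08 and 0.09. The longest bin gave -0.04, -0.09, 0.24, -0.0028 and 0.09 in knockout and 0.06, -0.13, 0.12, 0.02 and -0.26 in wild type. The groups were apart in the shortest bin and overlapped in the longest, and replicate 1 of each group hardly differed between them. Retained intron transcripts had a median length of 1123 bases and all tested transcripts 2198 bases, and within the retained intron class the medians ran from -0.22 in the shortest bin to -0.13 in the longest. The part of length in the transcript results was not tested.

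**Figure D3:**
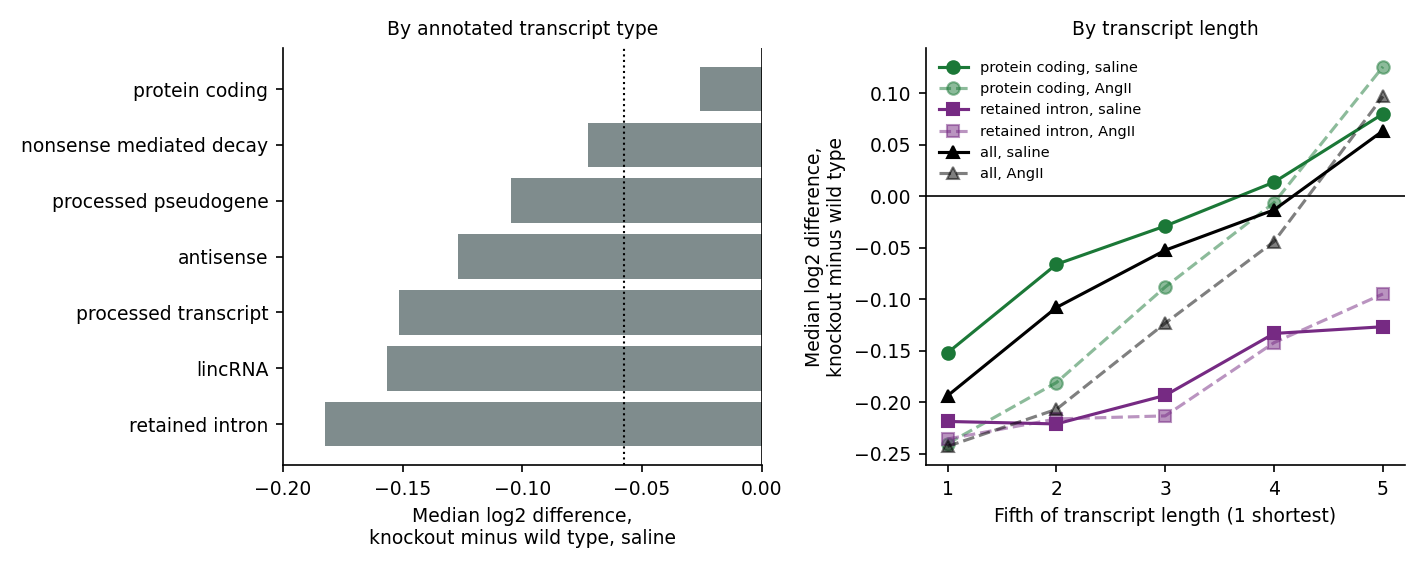
Median log2 difference of knockout minus wild type (FPKM + 1) under saline, by annotated transcript type (left panel, dotted line at the median of all tested transcripts) and by length bin (right panel, 1 shortest, with the AngII contrast dashed). Noncoding and retained intron classes lie below the protein-coding class, and the median passes from -0.19 in the shortest bin to 0.06 in the longest.

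Gm10800, the gene with the smallest p, is one of 10 predicted genes with closely related sequence, 2 on chromosome 2 (Gm10800 and Gm10801) and 8 on chromosome 9 (Gm10715, Gm10717 to Gm10721, Gm11168 and Gm26870). Their sequence resembles the mouse major satellite, the repeat of pericentromeric heterochromatin. The other 9 genes were chosen after the values of Gm10800 were seen. The first 120 bases of 3 of the transcripts are shown because reads from one copy can match another. They come from GENCODE M21 on GRCm38 (mm10), written 5′ to 3′ on the strand of the gene. Capitals mark runs of at least 20 bases found unchanged anywhere in the transcripts compared, which for Gm10800 are both of the others and for Gm11168 and Gm10717 that of Gm10800. The transcripts lie at chr2:98666547-98667301 on the minus strand (Gm10800), chr9:3003346-3005194 on the plus strand (Gm11168) and chr9:3025417-3026387 on the plus strand (Gm10717).
Gm10800: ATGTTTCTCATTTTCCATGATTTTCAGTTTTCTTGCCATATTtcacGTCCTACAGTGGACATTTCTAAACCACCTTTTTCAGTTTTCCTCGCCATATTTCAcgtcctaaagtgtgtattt
Gm11168: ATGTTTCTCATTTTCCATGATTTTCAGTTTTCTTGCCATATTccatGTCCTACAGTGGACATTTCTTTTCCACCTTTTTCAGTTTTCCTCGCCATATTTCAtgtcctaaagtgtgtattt
Gm10717: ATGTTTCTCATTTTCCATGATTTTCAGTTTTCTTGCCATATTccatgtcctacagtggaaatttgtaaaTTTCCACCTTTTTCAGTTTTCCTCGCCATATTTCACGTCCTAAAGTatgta
All 23 transcripts of the other 9 genes share runs of 25 bases with Gm10800, at 9.44% to 35.1% of their 25-base windows, so the copy from which the reads came is uncertain.

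Gm10800 stood at 0.137, 0.156, 0.341, 0 and 0 FPKM in knockout replicates 1 to 5. In wild type replicates 1 to 5 it stood at 38.0, 70.7, 112, 35.7 and 13.2 FPKM. The knockout libraries held 0 to 17 reads of it and the wild type libraries 660 to 5474, with no overlap. It fell by 5.30 on the log2 scale (limma, SE 0.50, adjusted p = 4.46e-05) and under AngII by 3.69 (adjusted p = 0.00464). The call held in 20 of 21 alternative settings and was lost with limma-voom on recovered reads (adjusted p = 0.387). Summed over the 10 genes, FPKM was 0.137, 0.156, 0.341, 0 and 0 in knockout against 53.3, 83.1, 149, 45.4 and 20.7 in wild type replicates 1 to 5. All of the family signal in knockout libraries, 32 reads, was therefore assigned to Gm10800, though the copy of origin is uncertain. Wild type libraries had values above 0 for 9 or 10 of the 10 genes.

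Other genes at trace level stood apart between the genotypes in the same way. Olfactory and vomeronasal receptors, the sensory receptors of the nose, were counted as genes with any value above 0 among 1160 annotated coding genes. There were 64, 45, 79, 54 and 44 in knockout replicates 1 to 5, and 356, 375, 482, 291 and 285 in wild type replicates 1 to 5. Every wild type library had at least 285 and no knockout library more than 79. Under AngII the counts were 47 to 67 in knockout and 310 to 626 in wild type libraries. Genes of any kind above 0 numbered 22905 to 24503 in knockout and 26401 to 30468 in wild type saline libraries, although the implied read totals overlapped. This measure was chosen after the data were seen, and reads of such large families can be split among members. The part of the difference at trace level in the calls for Gm10800 and for the other low transcripts was not tested.

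**Figure D4:**
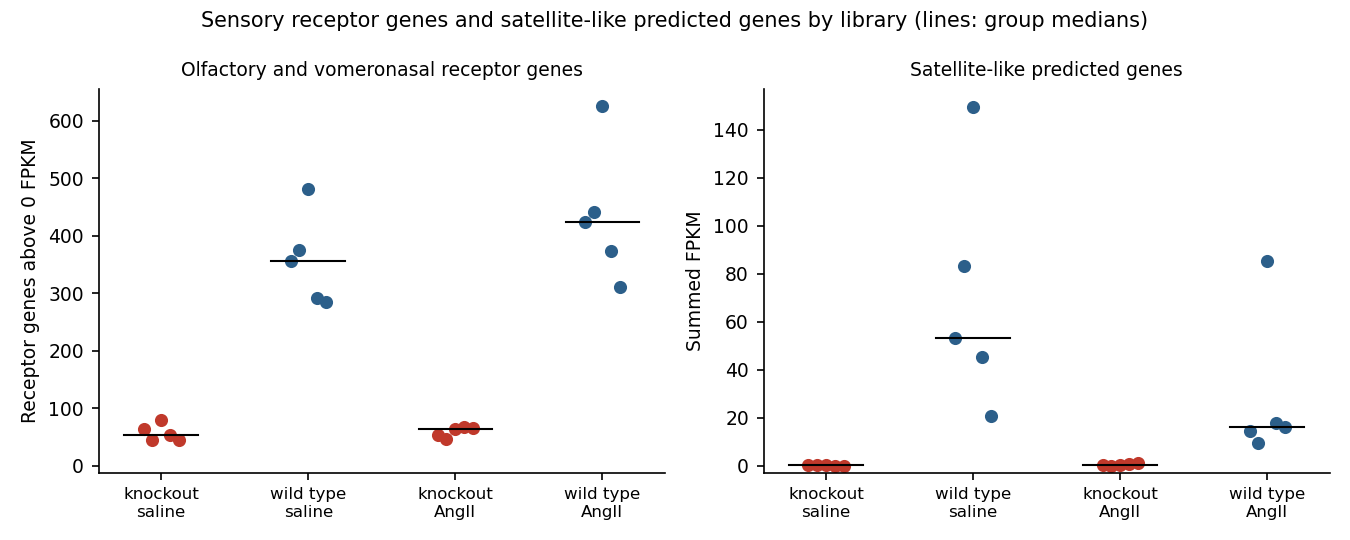
Number of olfactory and vomeronasal receptor genes above 0 (left panel, of 1160) and summed FPKM of the 10 satellite-like predicted genes (right panel), with 1 point per library, knockout left of wild type under each treatment. Knockout libraries hold 44 to 79 receptor genes under saline and wild type libraries 285 to 482, with no overlap, and the satellite-like sums separate the same groups.

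Among protein-coding genes whose saline mean reached 5 FPKM, the 12 lowest and 12 highest by moderated t are given as values. Apart from Gm10800 none passed the adjusted threshold. All 24 had the same sign under AngII, as did 66.9% of all tested genes and 86.3% of those with an unadjusted saline p under 0.05. Of the 24, 8 were called there, against 1.83% of all genes. The 24 were picked by a t whose spread the AngII contrast shares, which favours calls there. On the lower side Slirp averaged 4.89 ± 0.89 FPKM in knockout and 9.66 ± 1.69 FPKM in wild type (SD, n = 5 each, log2 difference -0.86, adjusted p = 0.116). Rpp21 was at 12.9, 13.3, 15.1, 12.97 and 9.32 FPKM in knockout against 21.1, 19.5, 20.7, 21.7 and 21.1 FPKM in wild type replicates 1 to 5 (-0.68, adjusted p = 0.116, and 0.00973 under AngII). These groups do not overlap in either gene. Clk1 summed to 20.4 ± 7.65 FPKM in knockout and 44.5 ± 10.3 FPKM in wild type (-1.12, adjusted p = 0.144). Mrpl9, a protein of the mitochondrial ribosome, stood at 38.4 ± 3.54 FPKM in knockout and 55.7 ± 5.33 FPKM in wild type.

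Hypk, a chaperone that works with the N-terminal acetyltransferase NatA at the ribosome, stood at 14.0 to 16.4 FPKM in knockout and 19.1 to 25.2 FPKM in wild type, and it was called under AngII (adjusted p = 0.0198). Oplah, an enzyme of the glutathione cycle, was at 17.3 ± 5.04 FPKM in knockout against 30.8 ± 5.97 FPKM in wild type. Dhrs3, a retinal reductase, stood at 19.98 to 31.3 FPKM in knockout and 34.7 to 45.0 FPKM in wild type. The knockout and wild type ranges of Hypk and Dhrs3 are separate, and those of Oplah nearly meet. Tcim was at 24.3 ± 4.19 FPKM in knockout and 41.5 ± 7.04 FPKM in wild type. Acads, the short-chain acyl-CoA dehydrogenase, stood at 3.11 to 5.45 FPKM in knockout and 11.8 to 42.2 FPKM in wild type. Its sum rests on transcript models between which reads may move, and the part of this in the Acads values was not tested. Cnppd1 and Ccdc69 complete the 12.

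On the higher side the leading gene was Ermp1, a metallopeptidase of the endoplasmic reticulum, at 11.96, 17.5, 16.9, 8.16 and 16.0 FPKM in knockout against 5.44, 6.45, 5.94, 5.69 and 4.38 FPKM in wild type replicates 1 to 5 (log2 difference 1.16, adjusted p = 0.116). Bmpr2, the type 2 receptor of bone morphogenetic proteins and a gene of vascular disease, stood at 6.77, 8.90, 11.4, 8.19 and 11.9 FPKM in knockout against 5.27, 5.40, 5.07, 5.21 and 4.25 FPKM in wild type replicates 1 to 5. Both genes were higher in every knockout library than in any wild type library. The difference for Bmpr2 was 0.77 (adjusted p = 0.2 under saline and 0.0355 under AngII). Ms4a4a, a membrane protein of macrophages, stood at 3.39 to 16.3 FPKM in knockout and 0.837 to 2.22 FPKM in wild type. The macrophage and monocyte markers as a list had a median of -0.16, which ran from -0.43 without knockout replicate 3 to 0.03 without knockout replicate 2 and was -0.65 without knockout replicates 1 and 3.

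Pank3, a kinase that starts coenzyme A synthesis, was at 29.7 to 53.7 FPKM in knockout and 27.4 to 32.3 FPKM in wild type, so the groups overlap. Qk, the RNA-binding protein Quaking that regulates splicing in smooth muscle and other cells, was at 35.0 to 43.7 FPKM in knockout and 25.3 to 33.2 FPKM in wild type. Efna1, a ligand of Eph receptors, was at 14.3 ± 2.17 FPKM in knockout and 9.22 ± 2.26 FPKM in wild type. Neurl4, Mid2, Fam160b2, Selenot, Manea and Mindy2 were the other genes on this side. Of these, Mid2, Fam160b2, Manea and Mindy2 were called under AngII with the same sign.

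A stricter description asks for separate groups in both treatments. Under saline the knockout libraries lay wholly below the wild type libraries for 153 genes (1.02%) and wholly above for 39 (0.26%). In both treatments they lay wholly below for 38 genes (0.253%) and wholly above for 7 (0.0466%), and for 0 genes (0%) did the directions differ. Of the 38 lower genes 31 are protein coding, 2 are small nucleolar RNAs, 2 are long intergenic noncoding RNAs, 2 are processed pseudogenes and 1 is a processed transcript. They include Tmem256, at 14.4, 27.3, 25.3, 25.1 and 22.5 FPKM in knockout against 34.7, 40.3, 30.5, 39.3 and 52.2 FPKM in wild type replicates 1 to 5. Cnppd1 averaged 12.5 ± 2.94 FPKM in knockout and 21.6 ± 4.87 FPKM in wild type, and Ccdc69 10.6 ± 2.10 FPKM in knockout and 15.7 ± 0.79 FPKM in wild type (SD, n = 5 each). Also among them, and named after their values were seen, are Polr2i, Polr2f and Polr2j, all small subunits of RNA polymerase II, with log2 differences of -0.47, -0.45 and -0.34 under saline, and Hspe1, the mitochondrial co-chaperonin, with -0.52.

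The 7 higher genes in both treatments are all protein coding. Hmbox1, a homeobox protein that binds telomeres, stood at 4.81, 4.54, 5.68, 4.70 and 5.53 FPKM in knockout against 4.28, 1.97, 1.80, 3.13 and 1.32 FPKM in wild type replicates 1 to 5. Sox7, a transcription factor of endothelial cells, stood at 3.90 to 5.78 FPKM in knockout and 3.28 to 3.71 FPKM in wild type. Manea, an endomannosidase of the Golgi, stood at 8.65 ± 1.13 FPKM in knockout and 5.70 ± 0.78 FPKM in wild type (SD, n = 5 each). Mindy2, a deubiquitinase, stood at 15.7 ± 1.63 FPKM in knockout and 10.4 ± 1.22 FPKM in wild type, and Haus2, a subunit of the augmin complex of the spindle, at 7.14 ± 0.40 FPKM in knockout and 5.42 ± 0.79 FPKM in wild type. Selenot and Spop are the others. The adjusted saline p of the 7 genes lay between 0.2 and 0.528.

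The genes closest to Rab22a in sequence and pathway were then read for differences. Rab5a, the main organiser of early endosomes, stood at 24.7, 32.6, 30.7, 34.5 and 41.4 FPKM in knockout against 26.3, 23.7, 27.8, 25.5 and 24.0 FPKM in wild type replicates 1 to 5. Knockout replicate 1 lies within the wild type range and the other 4 lie above it. The difference was 0.34 (limma, SE 0.12, adjusted p = 0.523). Rab31, the closest relative of Rab22a, stood at 10.04 to 15.8 FPKM in knockout and 8.34 to 13.6 FPKM in wild type (0.24). Rab5b, Rab5c, Rab21, Rab24 and Rab20 also overlapped, with differences between -0.32 and 0.05, and Rab17 was below the filter. With Rab22a itself, at 0.27 by its sum, the Rab5 subfamily had a median of 0.04 over 8 tested genes, with 0 called and 1 at an unadjusted p under 0.05. Leaving out 1 library the median ran from -0.0035 without wild type replicate 4 to 0.09 without knockout replicate 1.

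Early endosome effectors, which tether and fuse endosomes, had 13 of 19 genes higher and a median of 0.14, or 0.05 without wild type replicate 5 and 0.18 under AngII. Eea1, the tether that Rab5 and Rab22a bind, stood at 8.71 to 13.4 FPKM in knockout and 6.23 to 9.38 FPKM in wild type (log2 difference 0.36, adjusted p = 0.583 under saline and 0.0454 under AngII). Hook3, a microtubule adaptor, differed by 0.35, and Appl1 and Rabep1, both effectors of Rab5, by 0.30 and 0.37. Of 35 genes of the recycling endosome 21 were higher and 14 lower, with a median of 0.03, which was 0.0076 without knockout replicate 3, 0.09 without knockout replicate 1 and -0.02 under AngII. Vps29, a retromer subunit, stood at 25.5, 22.7, 27.4, 29.5 and 32.2 FPKM in knockout against 15.7, 13.1, 13.5, 18.7 and 25.9 FPKM in wild type replicates 1 to 5 (0.66, adjusted p = 0.459), and wild type replicate 5 lies within the knockout range. Under AngII its difference was -0.32. The 31 genes of late endosomes and lysosomes split 15 higher and 16 lower, with a median of 0.00, or -0.06 without knockout replicate 3 and 0.04 without knockout replicate 4.

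Agtr1a, the main type 1 receptor gene for angiotensin II in mice, stood at 6.27, 17.7, 9.44, 29.4 and 11.0 FPKM in knockout against 16.5, 9.05, 11.0, 6.69 and 10.2 FPKM in wild type replicates 1 to 5. The groups overlap, and the difference was 0.30 with an SE of 0.56. Agtr1b stood at 0.413 to 1.81 FPKM in knockout and 0.66 to 1.48 FPKM in wild type, and Agt, which encodes the precursor of the hormone, at 9.28 to 24.8 FPKM in knockout and 9.84 to 22.1 FPKM in wild type. Of 37 genes of G protein and arrestin signalling, 17 were higher and 20 lower. Those with the smallest p were Plcb3, the phospholipase C that Gq activates (-0.33), Rgs2, which shortens Gq signals (-0.78), Grk5, a receptor kinase (-0.58), and Prkce, a protein kinase C (0.34). Rgs2 stood at 16.2 to 36.2 FPKM in knockout and 30.8 to 90.6 FPKM in wild type, and Plcb3 at 14.7 to 21.5 FPKM in knockout and 19.3 to 24.7 FPKM in wild type. The values of both genes overlap between the groups.

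The gene lists of the vessel wall and of metabolism are given by counts and medians, beside the 42.9% higher and 57.1% lower of all genes and their median of -0.04. Over all lists together 1111 tested genes gave 0 calls in limma, where 2 of all 15010 genes were called (0.0133%). With library weights 160 list genes were called, where 1195 of all genes were. Limma-voom on recovered reads also gave 0 calls in the lists, but it did not call Gm10800 either, so that 0 does not show absence. Contractile smooth muscle had 26 of 32 genes lower, 7 of them at an unadjusted p under 0.05, and a median of -0.31. The median was -0.17 without knockout replicate 1, -0.11 without knockout replicates 1 and 3, and 0.09 under AngII. Ppp1r14a, the inhibitor of myosin phosphatase that sensitises contraction to calcium, stood at 16.1, 53.8, 37.4, 60.7 and 66.3 FPKM in knockout against 100.3, 61.0, 94.3, 71.5 and 95.9 FPKM in wild type replicates 1 to 5. Knockout replicates 1 and 3 are the lowest, and replicate 5 alone lies within the wild type range. Itga7, the laminin receptor of smooth muscle, differed by -0.57, Acta2 by -0.69 and Ptger3, a prostaglandin receptor in the list of vasoactive receptors, by 0.69.

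Elastic fibre genes were lower in 15 of 20, with a median of -0.28, of -0.07 without knockout replicate 1, the lowest of its group in this list, and of 0.03 under AngII. Ltbp1, which anchors latent TGF-beta in the matrix, stood at 13.6 to 29.7 FPKM in knockout and 29.2 to 45.7 FPKM in wild type (-0.68), and Efemp2, fibulin 4, differed by -0.56. Collagens had 11 of 16 lower and a median of -0.11, which ran from -0.35 without knockout replicate 4 to 0.0012 without knockout replicate 1 and was 0.06 without knockout replicates 1 and 3. Under AngII 14 of 16 collagens were higher, with a median of 0.40. Of the 18 genes of nitric oxide and cGMP signalling 13 were higher, with a median of 0.11 that was 0.03 without knockout replicate 5, 0.18 without knockout replicate 1, 0.33 without knockout replicates 1 and 3, and 0.17 under AngII. Gucy1a2, a subunit of the nitric oxide receptor, stood at 1.29 to 3.30 FPKM in knockout and 0.328 to 1.51 FPKM in wild type.

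Mitochondrial metabolism genes were mostly lower under saline. Fatty acid oxidation had 22 of 22 genes lower, 13 at an unadjusted p under 0.05, with a median of -0.63, and -0.27 without knockout replicates 1 and 3. Nuclear oxidative phosphorylation had 78 of 80 lower (median -0.47, or -0.19 without these replicates), and the tricarboxylic acid cycle 18 of 18 (median -0.44, or -0.12 without them). Without knockout replicate 3 alone the medians were -0.29 for oxidative phosphorylation and -0.18 for the tricarboxylic acid cycle. Under AngII the medians were -0.13 for fatty acid oxidation (6 higher, 16 lower), -0.22 for oxidative phosphorylation (15 higher, 65 lower) and -0.0087 for the tricarboxylic acid cycle (7 higher, 11 lower). Decr1, the dienoyl-CoA reductase of the mitochondrion, stood at 52.9, 124, 46.7, 95.9 and 69.3 FPKM in knockout against 105, 135, 119, 101 and 145 FPKM in wild type replicates 1 to 5. Knockout replicates 1 and 3 are again the lowest. Brown adipocyte markers moved with these genes, lower in 16 of 17 with a median of -0.68, -0.15 without the same replicates, -0.34 without knockout replicate 3 alone, and -0.03 under AngII, where 8 were higher and 9 lower. Cidea, a lipid droplet protein of brown fat, stood at 136 to 603 FPKM in knockout and 371 to 715 FPKM in wild type. The part of adipose tissue in the metabolic values was not tested.

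Cytosolic ribosomal proteins went the other way with respect to these replicates. Of 81 genes 76 were lower, with a median of -0.27 over all libraries, -0.77 without knockout replicates 1 and 3, and -0.65 under AngII. Leaving out 1 library it ran from -0.48 without knockout replicate 3 to -0.14 without knockout replicate 5. Host genes of small nucleolar RNAs had 14 of 15 lower and a median of -0.47 (-0.81 without the 2 replicates and -0.67 under AngII). Snhg20 stood at 7.61, 6.57, 16.9, 8.80 and 7.34 FPKM in knockout against 34.7, 12.9, 35.5, 34.7 and 15.8 FPKM in wild type replicates 1 to 5 (-1.37, adjusted p = 0.208 under saline and 0.0155 under AngII). Knockout replicate 3 alone reaches the wild type range.

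SR splicing factors and heterogeneous nuclear ribonucleoproteins had 24 of 28 genes lower (median -0.19, -0.30 without knockout replicate 1, -0.11 without wild type replicate 4, and -0.41 under AngII). Hnrnpdl stood at 19.6 to 29.4 FPKM in knockout and 28.6 to 41.7 FPKM in wild type (-0.52, adjusted p = 0.208). Clk4, a kinase of the same family as Clk1, stood at 9.32 to 14.3 FPKM in knockout and 13.7 to 23.4 FPKM in wild type (-0.67). Neat1, the architectural RNA of paraspeckles, was higher, at 23.8 to 31.3 FPKM in knockout and 14.0 to 25.9 FPKM in wild type (0.47, adjusted p = 0.459). The list of nuclear long noncoding RNAs did not move as a whole, with 5 of 11 genes higher and 6 lower. At an unadjusted p under 0.05 there were 1 higher and 1 lower. The list median was -0.15, or 0.26 without knockout replicates 1 and 3 and 0.16 under AngII. Lymphocyte markers moved with the ribosomal lists, with medians of -1.18 for B and plasma cells and -0.99 for T and NK cells, and -3.12 and -2.51 without knockout replicates 1 and 3. Without knockout replicate 5 they were -0.64 and -0.53, and under AngII -1.61 and -1.64. The part of lymphocytes in the ribosomal values was not tested.

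Cholesterol and interferon genes stood on the higher side. Cholesterol synthesis and uptake had 18 of 23 genes higher and a median of 0.34, or 0.17 without wild type replicate 3, 0.53 without knockout replicates 1 and 3, and -0.05 under AngII. Sc5d stood at 15.7 to 22.5 FPKM in knockout and 3.82 to 19.8 FPKM in wild type, and Dhcr7 at 2.17 to 15.3 FPKM in knockout and 1.09 to 2.11 FPKM in wild type. Interferon-induced genes had 29 of 35 higher and a median of 0.25, or -0.12 under AngII, 0.01 without knockout replicate 1, 0.40 without knockout replicate 5 and -0.22 without knockout replicates 1 and 3. Ifit3 stood at 34.8, 8.58, 15.3, 10.3 and 9.09 FPKM in knockout against 5.24, 5.80, 9.92, 6.59 and 6.69 FPKM in wild type replicates 1 to 5. Knockout replicate 1 is far above the other libraries. Neither list had a call.

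**Figure D5:**
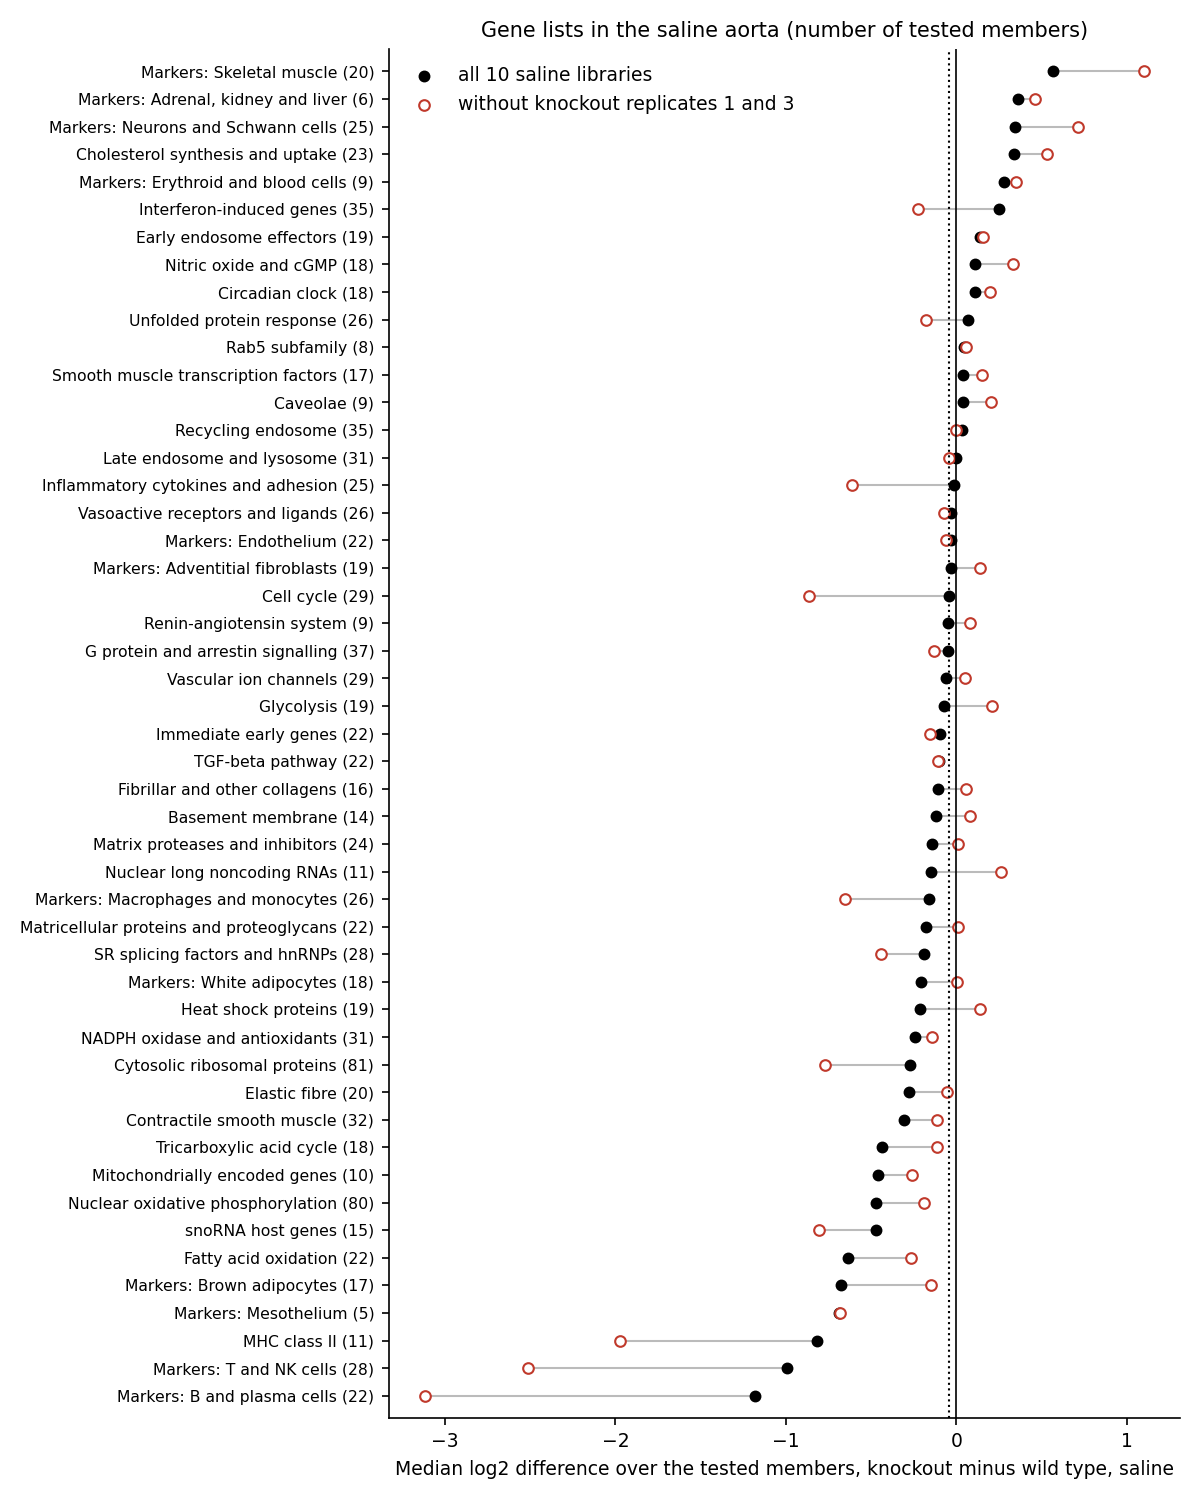
Median log2 difference of knockout minus wild type (FPKM + 1) of each gene list under saline, with all 10 libraries (filled points) and without knockout replicates 1 and 3 (open points), the dotted line marking the median of all tested genes. Fatty acid oxidation, oxidative phosphorylation and contractile genes lie nearer 0 without the 2 replicates, while ribosomal and lymphocyte lists lie farther below 0.

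Leaving out knockout replicates 1 and 3 together raised the number of called genes to 49 of 15010, of which 45 were lower. These included 8 immunoglobulin variable segments, 9 genes or pseudogenes named for ribosomal proteins and 4 small nucleolar RNAs, and both genes called with all libraries were among them. Transcripts called in the same fit numbered 127.

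Genes near Rab22a on chromosome 2 were read next. Within 5 Mb of it 67 genes were tested, 29 higher and 38 lower, with 0 called and a median of -0.02. At an unadjusted p under 0.05 there were 3 higher and 4 lower, and the smallest adjusted p was 0.452. It belonged to Gm2007, at 2.06 to 4.59 FPKM in knockout and 1.03 to 2.63 FPKM in wild type. Tubb1, the beta tubulin of platelets, stood at 1.61 to 3.68 FPKM in knockout and 0.411 to 2.45 FPKM in wild type (0.64), and Bcas1 at 0.834 to 2.33 FPKM in knockout and 0.139 to 1.90 FPKM in wild type (0.54). Pck1, phosphoenolpyruvate carboxykinase of gluconeogenesis and adipose tissue, stood at 65.3, 446, 171, 131 and 137 FPKM in knockout against 527, 382, 920, 170 and 500 FPKM in wild type replicates 1 to 5, and the groups overlap in all 4 genes.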

How the data were processed

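The authors deposited 1 table of values per library with 126719 transcript models, read here as FPKM because, multiplied by transcript length, 99.4% to 99.6% of low values lay within 0.1 read of a whole multiple of the library's step. Per the submitters' processing notes the build was mm10 and limma was used. Aligner, assembler, counter and strand setting were not given in the sources used here, so overlapping and antisense genes cannot be told apart.

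GENCODE M21 (GRCm38, mm10) matched 109913 of 110082 Ensembl transcripts, summed to 42890 genes. The 16637 unannotated models (10.6% to 12.9% of FPKM) were left out. Features with at least 1 FPKM in at least 5 of 20 libraries were tested on log2(FPKM + 1), a scale that understates changes of low genes, with limma 3.58.1 in R 4.3.3 (lmFit, eBayes with trend and robust, 1 mean per group). Calls are Benjamini-Hochberg adjusted p under 0.05, over all genes or all transcripts. Exact permutation tests, tables and figures used Python 3.11.15, numpy 2.4.6, pandas 2.3.3, scipy 1.17.1 and matplotlib 3.10.9. The fit was tested on simulated data.

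Genes named were all called features, the 12 lowest and 12 highest protein-coding genes by t with a mean of at least 5 FPKM, up to 4 members of smallest p per list, the Rab5 subfamily with Agtr1a, Agtr1b and Agt, the 4 neighbours of smallest p, and the 5 most different in each direction among those apart in both treatments. A gene that this rule names and the sequence of Rab22a are not reported here. Members and lists were chosen with earlier results of these data known.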

Additional observations from a re-analysis of the deposited data

Results flagged for a closer look

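Among 136 groups of 5 libraries, 12 held a library far from the others of its group by Dixon's criterion (gap over range above 0.71), and chance marks about 1 in 20 such groups. For single features, in FPKM, 6720427I07Rik was 2.08 in knockout replicate 3 (others 1.09 to 1.37), the Rab22a sum 2.82 in wild type replicate 4 (8.57 to 10.4), the Nupr1 transcript 3.85 in knockout replicate 1 (others 0), and the H3f3b transcript 14.7 in wild type replicate 4 (6.52 to 8.77). The Hnrnph1 transcript was 5.14 in knockout replicate 3 (1.73 to 2.32), and the Clk1 transcript 1.90 in the same library (0.757 to 1.06).

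For list levels, as mean log2(FPKM + 1), knockout replicate 1 was low for elastic fibre genes at 3.41 (4.18 to 4.39), matricellular proteins and proteoglycans at 4.56 (5.27 to 5.47) and adventitial fibroblast markers at 4.98 (5.62 to 5.74). Knockout replicate 3 was low for glycolysis at 5.54 (6.53 to 6.93). Wild type replicate 3 was high for collagens at 4.63 (4.16 to 4.29), and wild type replicate 2 for mitochondrially encoded genes at 7.31 (6.29 to 6.36).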

How the results depend on the processing

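Called genes under saline numbered 2, and 1 with quantile normalization, 3 with median-of-ratios scaling, 20 without a filter, 1 at 5 FPKM, 3 with a pseudocount of 0.1, 1 with the saline libraries alone, 1195 with library weights (1034 lower), 1 with limma-voom on recovered reads, 49 without knockout replicates 1 and 3, and 1 to 4 leaving out 1 library (4 without knockout replicate 3). Under AngII, 275 became 1913 with library weights, 160 with limma-voom, 790 without those 2 replicates and 181 to 421 leaving out 1 saline library; quantile normalization gave 374 (124 lower) and median-of-ratios scaling 365 (152 lower). The interaction count was 0, and 1 without a filter. Called transcripts numbered 18, and 10 at 5 FPKM, 7 with the saline libraries alone, 80 with library weights, 0 with limma-voom, 127 without knockout replicates 1 and 3 and 3 to 28 leaving out 1 library. Limma-voom gave the Rab22a transcript with exon 3 an adjusted p of 0.404.

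For Rab22a the difference with exon 3 ran from -2.94 to -2.57 leaving out 1 library, that without exon 3 from 1.54 to 2.03, and that of the sum from -0.015 (without wild type replicate 4) to 0.38.

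Same-numbered replicates correlated at 0.01, 0.04, 0.31, -0.48 and 0.35 in their deviations, and 1 of 5 correlated best with its own number. So few values cannot settle whether same-numbered replicates share more than a number. With the replicate number as a block, 1 gene and 6 transcripts were called under saline and 70 genes under AngII, and the Rab22a differences of -2.70 and 1.86 had an exact sign-flip p of 0.0625, the smallest it can give.

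Differences near 0 changed sign. Rab5b ran from -0.021 (without knockout or wild type replicate 5) to 0.085 leaving out 1 library, Rab21 from -0.027 (without knockout replicate 3) to 0.090, and -0.018 with library weights. Agt was 0.0029 with median-of-ratios scaling, 0.11 with library weights, 0.079 without knockout replicates 1 and 3, and ran from -0.23 to 0.14 leaving out 1 library. The causes were not tested. Reads per library limit trace genes, and counting error was not modelled.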
